A study of Equus caballus with 4 samples.

Results

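Enzymes that bring pyruvate into the tricarboxylic acid (TCA) cycle and turn the cycle were followed through 9 genes, PDHA1, DLAT, CS, IDH3A, OGDH, SUCLA2, FH, MDH1 and MDH2, in horse satellite cells exposed to gamma-oryzanol (GO). The members were all noncontrol probes whose gene name in the array files, in upper or lower case, equalled 1 of these symbols. This gave 16 probes for the 9 genes, among 43603 probes and 14599 named genes on the array. Satellite cells are the stem cells of skeletal muscle, here those of the m. semitendinosus of Equus caballus, and GO is a mixture of ferulic acid esters of plant sterols from rice bran. Cells that had spent 2 days in differentiation medium with 2% horse serum received 0.125 μM GO for 24 h in DMSO as the vehicle (0.04 μl/ml), and control cells received the same amount of DMSO alone. Each of 4 two-color arrays paired Cy5-labeled cRNA from GO-treated cells with Cy3-labeled cRNA from controls. No array had the dyes swapped, so an effect of dye on a probe and an effect of GO cannot be told apart. The paper reports that cultures of all horses were scored and the best-scoring line was used further, but also that cells of every isolation were plated. Whether the 4 arrays stand for different horses or for cultures of one line is therefore unclear. The p-values thus measure the spread between samples whose independence is not known.

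Pyruvate from glycolysis enters the mitochondrion and is turned into acetyl-CoA by the pyruvate dehydrogenase complex, which is switched off by its kinases and on by its phosphatases. Citrate synthase joins acetyl-CoA to oxaloacetate, and the cycle then oxidizes the carbon to carbon dioxide while it loads electron carriers for the respiratory chain, ending with malate dehydrogenase, which renews oxaloacetate. Skeletal muscle relies on this route for sustained work, and myoblasts generally build up mitochondria as they differentiate. The cytosolic malate dehydrogenase belongs to the malate-aspartate shuttle, which carries the electrons of cytosolic NADH into the mitochondrion.

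MDH2, the mitochondrial malate dehydrogenase, had the lowest ratios among the members as deposited, but not without lowess normalization: the means of its 5 probes lay between -0.39 and -0.35 as log2 ratios (GO-treated over control cells), and each of the 5 was lower with GO on every array. Without lowess they lay between -0.17 and -0.11, and IDH3A A_69_P097513 (-0.24), SUCLA2 (-0.20) and DLAT (-0.19) were lower. Of the 16 member probes 12 had a lower signal with GO on every array, beside 21.5% of all tested probes. These 12 include 5 MDH2, 3 IDH3A and 2 MDH1 probes, so they are not 12 separate measurements. The 9 genes were otherwise within about 1.16-fold of the control cells by every probe, and MDH1, IDH3A, SUCLA2 and DLAT were also lower on all 4 arrays. CS was higher on all 4 arrays, and PDHA1, OGDH and FH had ratios on both sides of 0.

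Both of these conditions had to be met for a change: a limma p, two-sided and adjusted after Benjamini-Hochberg over 26832 tested probes, no larger than 0.05, and a fold of 1.3 or more in either direction (0.38 on the log2 scale). Among all tested probes 8.94% met both, and 5.61% met both and were lower with GO. All 16 member probes were well above background in both channels on all 4 arrays, so all were tested, and 1 of the 16 changed, an MDH2 probe that was lower. By the adjusted p alone 7 of the 16 member probes passed, all lower, beside 18.1% of all tested probes in either direction and 9.82% in the lower one. Of these 7 probes, 5 were MDH2 probes that overlap one another, so they are not separate measurements of the cycle.

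With 1 probe per gene, the brightest by its mean signal over both channels, 0 of the 9 genes met both thresholds in limma, beside 8.68% of 9506 named genes. At an unadjusted p under 0.05 there were 5 of the 9, beside 34.7% of named genes. The plain one-sample test also gave 0 past both thresholds and 4 under an unadjusted p of 0.05, beside 26.2% of named genes. By the adjusted p alone MDH1 and MDH2 passed, 2 of 9, beside 17.3% of named genes. The median log2 ratio of the 9 genes was -0.17, and -0.11 without lowess, and that of all named genes was 0.00218 as deposited. In these bulk samples fewer cells of a type and less RNA per cell cannot be told apart.

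**Figure D1:**
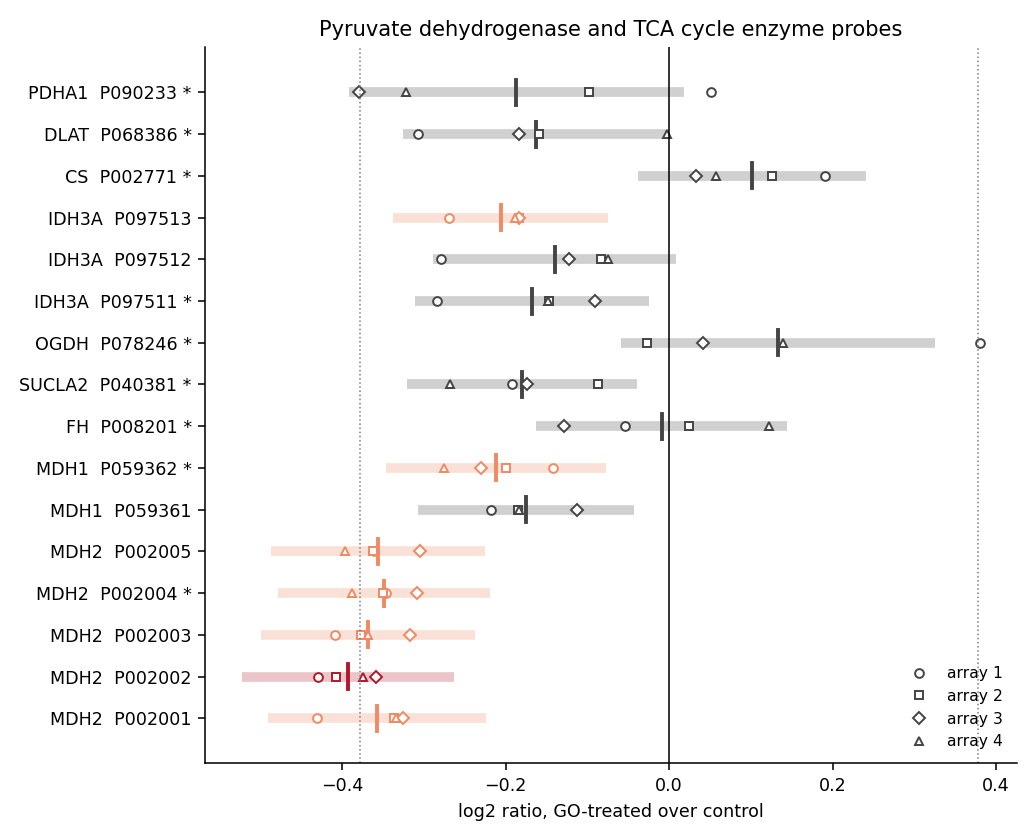
Log2 ratios (GO over control) for the 16 member probes. Open symbols are the 4 arrays, vertical ticks the means and pale bars limma's 95% intervals; an asterisk marks the brightest probe of a gene, orange an adjusted p of at most 0.05, red also a fold change of at least 1.3, and dotted lines that fold. The 5 MDH2 probes lie farthest left, with all array values between -0.43 and -0.31, and CS is the only gene whose 4 values are all above 0; without lowess normalization the FH mean moves from -0.01 to 0.25, and the MDH2 probes, then at -0.17 to -0.11, are no longer the lowest.

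The entry of pyruvate was covered by PDHA1, the catalytic alpha subunit of the first enzyme of the complex, and DLAT, its acetyltransferase core. The PDHA1 probe, A_69_P090233 of ENSECAT00000004038, lies on the plus strand of chromosome X of EquCab1 (chrX:8331418-8331917), and since its 60 bases span 500 bases of the genome it crosses an intron. Its log2 ratio was 0.05 on array 1, -0.10 on array 2, -0.38 on array 3 and -0.32 on array 4. Array 1 stood on the other side of 0, and arrays 3 and 4 were the lowest. The mean was -0.19 ± 0.20 (SD, n = 4; 95% interval -0.39 to 0.02; adjusted p = 0.170, limma), a difference within the spread between arrays. With 1 array left out it ranged from -0.27 (without array 1) to -0.12 (without array 3).

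The DLAT probe, A_69_P068386 (chr7:17241497-17241556, plus strand), gave log2 ratios of -0.31, -0.16, -0.18 and -0.0029 on arrays 1 to 4. All were below 0, but array 4 was at the level of the control cells. The mean of -0.16 ± 0.13 (SD, n = 4) had an adjusted p of 0.138 (limma), so DLAT did not pass either threshold.

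CS, citrate synthase, which commits acetyl-CoA to the cycle and is widely used as a marker of mitochondrial content, had 1 probe, A_69_P002771 of NM_001195515, on unplaced sequence (chrUn:195470324-195470383, minus strand). Its log2 ratio was 0.19, 0.13, 0.03 and 0.06 on arrays 1 to 4. GO-treated cells were thus slightly brighter on every array, most on array 1. The probe was among the dimmer members, with processed signals of 154, 220, 214 and 191 in control cells and 176, 240, 219 and 198 in GO-treated cells, in arbitrary units. These ranges overlapped, and the mean log2 ratio of 0.10 ± 0.07 (SD, n = 4) had an adjusted p of 0.257 (limma). It remained above 0 at 0.04 after normexp with loess and at 0.04 without lowess.

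IDH3A, the catalytic subunit of the NAD-dependent isocitrate dehydrogenase that carries out the first oxidation of the cycle, had 3 probes, each sharing 20 bases with the next one along the transcript ENSECAT00000016292. The probe that passed the adjusted p is shown, with the 20 bases it shares with its neighbor in capitals.
IDH3A A_69_P097513: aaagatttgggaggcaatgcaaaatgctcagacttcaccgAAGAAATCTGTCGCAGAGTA
It lies at chr1:113054748-113054807 on the plus strand. Its log2 ratio was -0.27 on array 1, -0.18 on array 2, -0.18 on array 3 and -0.19 on array 4. Arrays 2 to 4 were nearly alike and array 1 was lower. The mean was -0.21 ± 0.04 (SD, n = 4; adjusted p = 0.0465, limma), a fold change of 1.15, under the 1.3 asked for.

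The other IDH3A probes did not pass the adjusted p. The brightest, A_69_P097511, had log2 ratios of -0.28, -0.15, -0.09 and -0.15 on arrays 1 to 4 (adjusted p = 0.0988, limma), and A_69_P097512 had -0.28, -0.08, -0.12 and -0.07 (adjusted p = 0.159, limma). Array 1 was thus the lowest by all 3 probes, which share bases and are not independent. The adjusted p of A_69_P097513 ranged from 0.0791 to 0.148 when single arrays were removed, so that call rested on all 4 arrays. It was also lost with the plain one-sample test (0.0676) and with channels as separate samples (0.275).

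OGDH, the first enzyme of the 2-oxoglutarate dehydrogenase complex, had 1 probe, A_69_P078246 (chr4:15462473-15462532, plus strand). Its log2 ratio was 0.38 on array 1, -0.03 on array 2, 0.04 on array 3 and 0.14 on array 4. Array 1 was far above the others, which lay near 0. The mean was 0.13 ± 0.18 (SD, n = 4; adjusted p = 0.279, limma). It was 0.05 without array 1, 0.04 after normexp with loess and 0.06 without lowess. Processed signals were 225, 311, 236 and 200 in control cells and 293, 305, 243 and 220 in GO-treated cells, so the channels overlapped.

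SUCLA2, the subunit that makes succinyl-CoA synthetase specific for ADP, had 1 probe, A_69_P040381 (chr17:21865159-21865218, plus strand). Its log2 ratio was -0.19, -0.09, -0.17 and -0.27 on arrays 1 to 4. All were below 0, with array 2 the closest to it. The mean of -0.18 ± 0.07 (SD, n = 4) had an adjusted p of 0.0784 (limma), which was 0.0301 after normexp with loess, at a ratio of -0.20, and 0.0732 without lowess.

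FH, fumarase, which hydrates fumarate to malate, had 1 bright probe, A_69_P008201 (chrUn:68613973-68614032, minus strand). Its log2 ratio was -0.05, 0.02, -0.13 and 0.12 on arrays 1 to 4. The values lay on both sides of 0, 2 lower and 2 higher. The mean was -0.01 ± 0.11 (SD, n = 4; adjusted p = 0.937, limma), with a 95% interval of -0.16 to 0.14, and without lowess it turned to 0.25 (adjusted p = 0.0680).

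**Figure D2:**
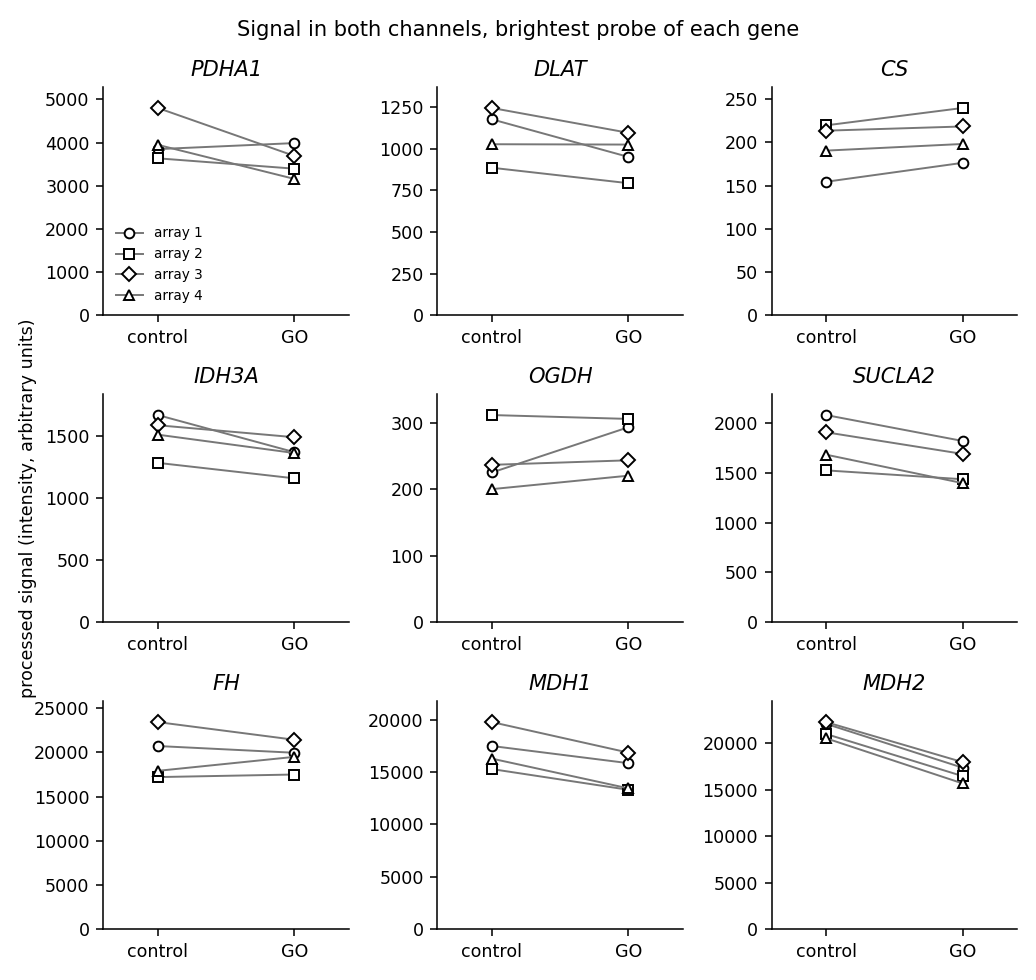
Processed signal (intensity, arbitrary units) of the brightest probe of each gene in the control and the GO channel; each line joins both channels of 1 array, and every axis starts at 0. For MDH2 the 4 GO signals lie between 15702 and 17995, all below the 4 control signals, which lie between 20557 and 22297; for the other 8 genes the channels overlap. Panels have their own scale, and levels of different probes are not comparable. The signals are lowess-normalized, and without lowess the mean log2 ratio of this MDH2 probe was -0.11.

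MDH2 oxidizes malate to oxaloacetate in the mitochondrial matrix and so closes the cycle. Its 5 probes lie in 2 groups along NM_001195526, with 59 shared bases in the first group and at least 56 in the second. The brightest probe and the probe that met both thresholds are shown, because the result for MDH2 rests on them; together they read 117 consecutive bases of the transcript, from 943 to 1059, and the capitals mark the 3 bases they share.
MDH2 A_69_P002004: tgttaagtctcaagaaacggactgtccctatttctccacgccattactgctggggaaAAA
MDH2 A_69_P002002: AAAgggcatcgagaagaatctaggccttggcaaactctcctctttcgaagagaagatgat
Both are on the minus strand of unplaced sequence. A_69_P002002 lies within 1 exon (chrUn:174417870-174417929), whereas A_69_P002004 spans 1550 bases of the genome (chrUn:174417927-174419476) and crosses an intron.

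A_69_P002002 had log2 ratios of -0.43, -0.41, -0.36 and -0.37 on arrays 1 to 4. The 4 values lay close together and far below 0. The mean was -0.39 ± 0.03 (SD, n = 4), with a 95% interval of -0.52 to -0.26, a fold change of 1.31 and a limma p of 0.00737 after Benjamini-Hochberg adjustment (adjusted p), so the signal fell by 23.8%. The margin over the fold threshold was small, and without lowess the log2 ratio was -0.16 with an adjusted p of 0.158, past neither threshold.

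The brightest probe, A_69_P002004, had log2 ratios of -0.35, -0.35, -0.31 and -0.39. It was lower in GO-treated cells to nearly the same extent on every array. Its mean of -0.35 ± 0.03 (SD, n = 4) had an adjusted p of 0.0105 (limma) and a fold change of 1.27, just under the threshold. This is why MDH2 is not among the changed genes here when 1 probe stands for a gene. The paper's own list of changed genes, from the same arrays, holds MDH2 as lower with GO. Processed signals of A_69_P002004 were 22113, 21019, 22297 and 20557 in control cells and 17392, 16489, 17995 and 15702 in GO-treated cells on arrays 1 to 4. All 4 GO signals were below all 4 control signals, which held for all 5 MDH2 probes and for 0 of the other 11 member probes, beside 5.39% of all tested probes. The 5 probes overlap, so they are not separate measurements. These signals were lowess-normalized, and without lowess the log2 ratio of A_69_P002004 was -0.11 (adjusted p = 0.277, limma).

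The remaining MDH2 probes gave -0.36 (A_69_P002001), -0.37 (A_69_P002003) and -0.36 (A_69_P002005), with fold changes of 1.28 to 1.29 and adjusted p between 0.00903 and 0.0106 (limma). The 5 probes thus differed from each other by less than the width of the 95% interval of any of them, and which of them met a fold of 1.3 rested on differences of a few hundredths. After normexp with loess 2 of the 5 met both thresholds, A_69_P002002 and A_69_P002001. Without array 2 the adjusted p of the brightest probe was 0.0592, whereas its ratio stayed between -0.36 and -0.34 with any array left out.

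MDH1 is the cytosolic malate dehydrogenase, the partner of MDH2 in the malate-aspartate shuttle. Its 2 probes lie side by side on the minus strand of chromosome 15 and share 0 bases. They are shown because they measure adjacent stretches that end at the stop codon, which is in capitals.
MDH1 A_69_P059362: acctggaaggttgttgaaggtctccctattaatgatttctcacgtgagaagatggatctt
MDH1 A_69_P059361: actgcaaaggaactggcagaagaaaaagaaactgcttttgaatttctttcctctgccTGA
The first lies at chr15:34602119-34602178 and the second at chr15:34602059-34602118.

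A_69_P059362, the brighter one, had log2 ratios of -0.14, -0.20, -0.23 and -0.28 on arrays 1 to 4. All were below 0, array 1 the least. The mean was -0.21 ± 0.06 (SD, n = 4; 95% interval -0.35 to -0.08; adjusted p = 0.0465, limma), at a fold change of 1.16. Without lowess it was -0.0026 (adjusted p = 0.980), and its adjusted p ranged from 0.0529 to 0.153 when single arrays were removed. It was 0.0515 with dim probes kept, 0.0794 with the plain one-sample test and 0.198 with channels as separate samples. A_69_P059361 had -0.22, -0.18, -0.11 and -0.18, with a mean of -0.17 ± 0.04 (SD, n = 4; adjusted p = 0.0725, limma). Processed signals of A_69_P059362 were 17486, 15285, 19766 and 16281 in control cells and 15850, 13309, 16856 and 13445 in GO-treated cells, so the channels overlapped although each array was lower.

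Averaged over all probes of each gene, the log2 ratio of MDH2 was -0.36 and that of MDH1 was -0.19. The MDH2 ratio minus the MDH1 ratio was -0.22, -0.17, -0.15 and -0.14 on arrays 1 to 4, a difference of the same sign on every array. The mean difference was -0.17 ± 0.03 (SD, n = 4), and it was -0.16 after normexp with loess and -0.08 without lowess. A two-sided exact permutation test over the 4 arrays gave p = 0.125, the smallest that 4 arrays allow, so p under 0.05 could not be reached. This comparison was chosen after the values were seen.

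The bright members depended on the dye normalization. Without lowess, the median log2 ratio of the brightest 1 of 4 equal groups of tested probes was 0.11, against -0.0011 with it. Among the 781 tested probes within 0.5 log2 units of the signal of the brightest MDH2 probe, the median log2 ratio was 0.18 without lowess and -0.05 with it. Without lowess that MDH2 probe was at -0.11 (adjusted p = 0.277, limma), and its difference from the probes of like signal was -0.29. For MDH1 the same comparison gave -0.17, for FH 0.07, for PDHA1 -0.20, for SUCLA2 -0.22, for DLAT -0.19, for IDH3A -0.16, for CS 0.08 and for OGDH 0.09. Subtracting the median of probes of like signal is itself a centring by signal, as lowess is, so its likeness to the deposited ratios is built in and says nothing about the directions apart from lowess. These differences were not tested.

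**Figure D3:**
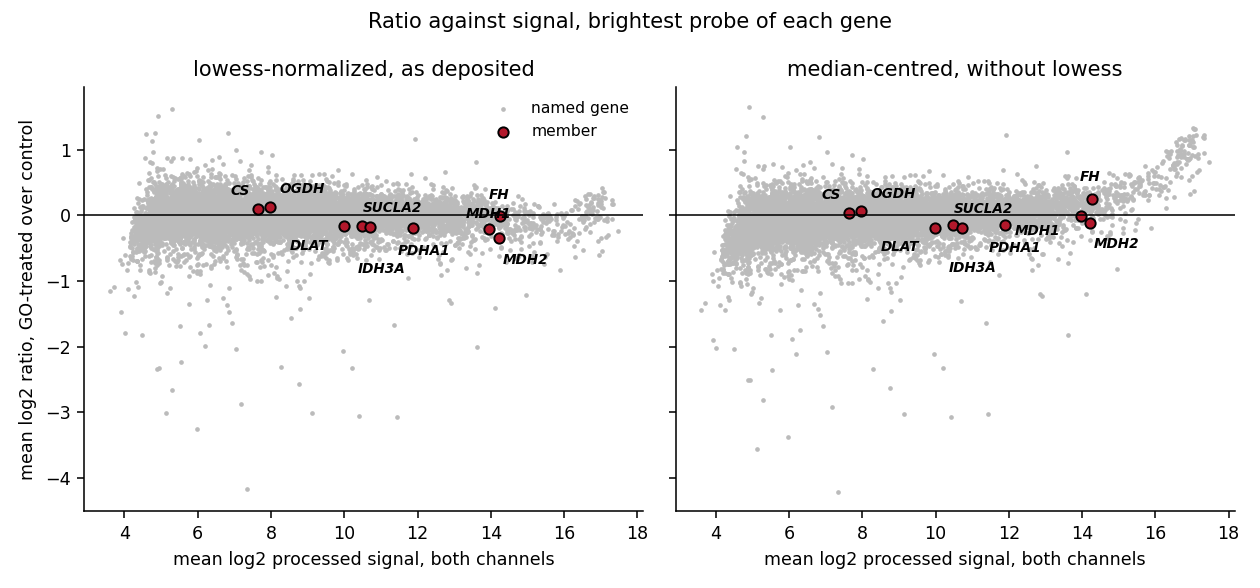
Mean log2 ratio (GO over control) against mean log2 processed signal for 9506 named genes (grey, brightest probe) and the 9 members (red), with the deposited lowess-normalized ratios (left) and with median-centred ratios without lowess (right). Without lowess the brightest genes bend upward, and MDH2 moves from -0.35 to -0.11, MDH1 from -0.21 to -0.0026 and FH from -0.01 to 0.25.

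The other subunits of the pyruvate dehydrogenase complex were all tested, and 0 of 3 met both thresholds (limma). At an unadjusted p under 0.05 (limma) there were 2, beside 34.7% of named genes. By the plain one-sample test 0 were past both thresholds. PDHX, which holds the complex together by binding the E3 enzyme, had log2 ratios of -0.18, -0.25, -0.32 and -0.27 on arrays 1 to 4. It was lower on every array, with a mean of -0.25 ± 0.06 (SD, n = 4; adjusted p = 0.0295, limma). DLD, that E3 enzyme, which also serves the 2-oxoglutarate dehydrogenase complex, had -0.31, -0.26, -0.34 and -0.15, a mean of -0.27 ± 0.08 (adjusted p = 0.0297, limma). The second DLD probe was at -0.37 and did not meet both thresholds. PDHX and DLD both passed the adjusted p alone, as did 17.3% of named genes. By the plain one-sample test they did not (0.0740 for PDHX and 0.0913 for DLD). DLD also did not pass without lowess (0.0886), with dim probes kept (0.0610), with channels as separate samples (0.169) or without array 1, 2 or 3 (0.0610, 0.111 and 0.117). PDHB, the beta subunit of the first enzyme, was at -0.01 (adjusted p = 0.872, limma) and at 0.04 without lowess.

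Of the kinases and phosphatases of the complex 4 of 7 were tested, and 0 of the 4 met both thresholds or the adjusted p (limma). At an unadjusted p under 0.05 (limma) there were 3, beside 34.7% of named genes. By the plain one-sample test 0 of the 4 were past both thresholds. All 4 had ratios above 0, at 0.23 for PDK1, 0.26 for PDK2, 0.21 for PDK3 and 0.18 for PDP1. The direction held under both other scalings but the size did not: after normexp with loess PDK2 was at 0.08, PDK3 at 0.09 and PDP1 at 0.06, the list median moved from 0.22 to 0.09, and without lowess PDP1 was at 0.05. PDK1, a kinase that inactivates the complex, came closest, with log2 ratios of 0.11, 0.19, 0.36 and 0.27 on arrays 1 to 4 and an adjusted p of 0.0501 (limma). It passed the adjusted p after normexp with loess (0.0347) and without lowess (0.0472), but not by the plain one-sample test (0.125). PDK4, PDP2 and PDPR were not well above background on any array in either channel.

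Among the other subunits of cycle enzymes 9 of 10 were tested, and 0 of the 9 met both thresholds or the adjusted p (limma). At an unadjusted p under 0.05 (limma) there were 2, beside 34.7% of named genes. By the plain one-sample test 0 of the 9 were past both thresholds. Their median log2 ratio was -0.06 (-0.02 without lowess), with 6 genes below and 3 above 0, and SUCLG1 turned from -0.07 to 0.19 without lowess. SDHC, an anchor of succinate dehydrogenase in the inner membrane, had the largest ratio in size, -0.22, -0.25, -0.01 and -1.35 on arrays 1 to 4. Array 4 stood far below the others and set the mean of -0.46 ± 0.60 (SD, n = 4; adjusted p = 0.171, limma), which was -0.16 without it. Its 4 probes lay between -0.49 and -0.44. The other subunits of the isocitrate dehydrogenase of IDH3A were at 0.05 (IDH3B, 0.0093 after normexp with loess) and 0.22 (IDH3G), on the other side of 0 from IDH3A, and passed neither threshold, though IDH3G passed the adjusted p after normexp with loess (0.0466) and without lowess (0.0324). SDHA went the other way, at -0.22 and lower on all 4 arrays (adjusted p = 0.0664, limma). It passed the adjusted p after normexp with loess, at -0.24 (0.0376), but not without lowess (0.0831). By the plain one-sample test neither IDH3G (0.186) nor SDHA (0.158) passed.

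Around the cycle, 1 of 5 partners of the malate-aspartate shuttle met both thresholds, beside 8.68% of all named genes. This was GOT1, the cytosolic aspartate aminotransferase that works with MDH1, with log2 ratios of -0.07, -0.46, -0.58 and -0.61 on arrays 1 to 4. Array 1 was near 0 and the others were well below it. The mean was -0.43 ± 0.25 (SD, n = 4; adjusted p = 0.0319, limma), and its second probe gave -0.45. The call was lost without array 2, 3 or 4 (adjusted p = 0.109, 0.111 and 0.0832), with dim probes kept (0.137), with the plain one-sample test (0.161) and with channels as separate samples (0.150). GOT2, its mitochondrial counterpart, was at 0.19 (adjusted p = 0.147, limma). SLC25A13, an aspartate-glutamate carrier, passed the adjusted p alone at 0.22 (0.0456, limma; its 5 probes ranged from -0.03 to 0.22), but not after normexp with loess (0.139) or without lowess (0.0904).

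Pyruvate supply and carriers held 1 gene past both thresholds of 6, beside 8.68% of all named genes. This was SLC25A1, the mitochondrial citrate carrier, with log2 ratios of 0.72, 0.21, 0.41 and 0.25. It was higher on every array and most on array 1. The mean was 0.40 ± 0.23 (SD, n = 4; adjusted p = 0.0345, limma), and it was 0.29 without array 1 and 0.34 after normexp with loess, both under the fold threshold. The call was also lost without array 2 or 3, with dim probes kept, with array weights, with the plain one-sample test and with channels as separate samples. The carriers that admit pyruvate, MPC1 and MPC2, were at 0.02 and 0.08, with MPC1 at -0.05 after normexp with loess and MPC2 at 0.17 without lowess, and the 5 MPC1 probes ranged from -0.06 to 0.19. LDHA, a lactate dehydrogenase subunit, was at -0.06, at 0.000524 after normexp with loess and at 0.29 without lowess, where it passed the adjusted p (0.0215). LDHB was at 0.19 (adjusted p = 0.0680, limma) and at 0.36 without lowess, where it passed the adjusted p (0.0133). PKM was at 0.18 and at 0.32 without lowess and passed neither threshold. Of the 6 genes 5 were above 0, at a median of 0.13 (0.30 without lowess).

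Of the 3 NADP isocitrate dehydrogenases and cytosolic aconitase, 0 met both thresholds (limma; 1 at an unadjusted p under 0.05, and 0 past both thresholds by the plain one-sample test), with ACO1 the largest at 0.17 (adjusted p = 0.110) and at 0.11 after normexp with loess. Of 5 tested anaplerotic and malic enzymes 0 did so (limma; 1 at an unadjusted p under 0.05, and 0 past both thresholds by the plain one-sample test), with PCK2 the largest at 0.18 (adjusted p = 0.0946) and at 0.35 without lowess, where it passed the adjusted p (0.0126). Of 6 tested genes of mitochondrial mass and biogenesis 1 met both thresholds, NRF1, a transcription factor for nuclear genes of the respiratory chain, with log2 ratios of 0.40, 0.73, 0.44 and 0.86. This dim probe was higher on every array, at a mean of 0.61 ± 0.22 (SD, n = 4; adjusted p = 0.00972, limma), and after normexp with loess it was 0.21 with an adjusted p of 0.0615. The NRF1 call was also lost with dim probes kept (adjusted p = 0.0719), with the plain one-sample test (0.102), with channels as separate samples (0.0519) and without array 2 (0.0504). VDAC1 and TOMM20, of the outer membrane, were at 0.10 and 0.18 and passed neither threshold, though TOMM20, at 0.32, passed the adjusted p without lowess (0.0322). TFAM (-0.18), PPARGC1B (-0.19) and HSPD1 (-0.11) were lower by their brightest probes and passed neither threshold, and HSPD1 was at 0.10 without lowess. The second HSPD1 probe was at 0.03, and the 5 PPARGC1B probes ranged from -0.30 to -0.19. Of the 6 genes 3 were thus above and 3 below 0, at a median of -0.0048 (0.12 without lowess). At an unadjusted p under 0.05 there were 4 of the 6 (limma). Among all named genes 34.7% were under it, the share to set beside the list counts above too. By the plain one-sample test 0 of the 6 were past both thresholds. Over all 41 tested genes of these lists 3 met both thresholds, 2 higher and 1 lower, beside 8.68% of all named genes.

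**Figure D4:**
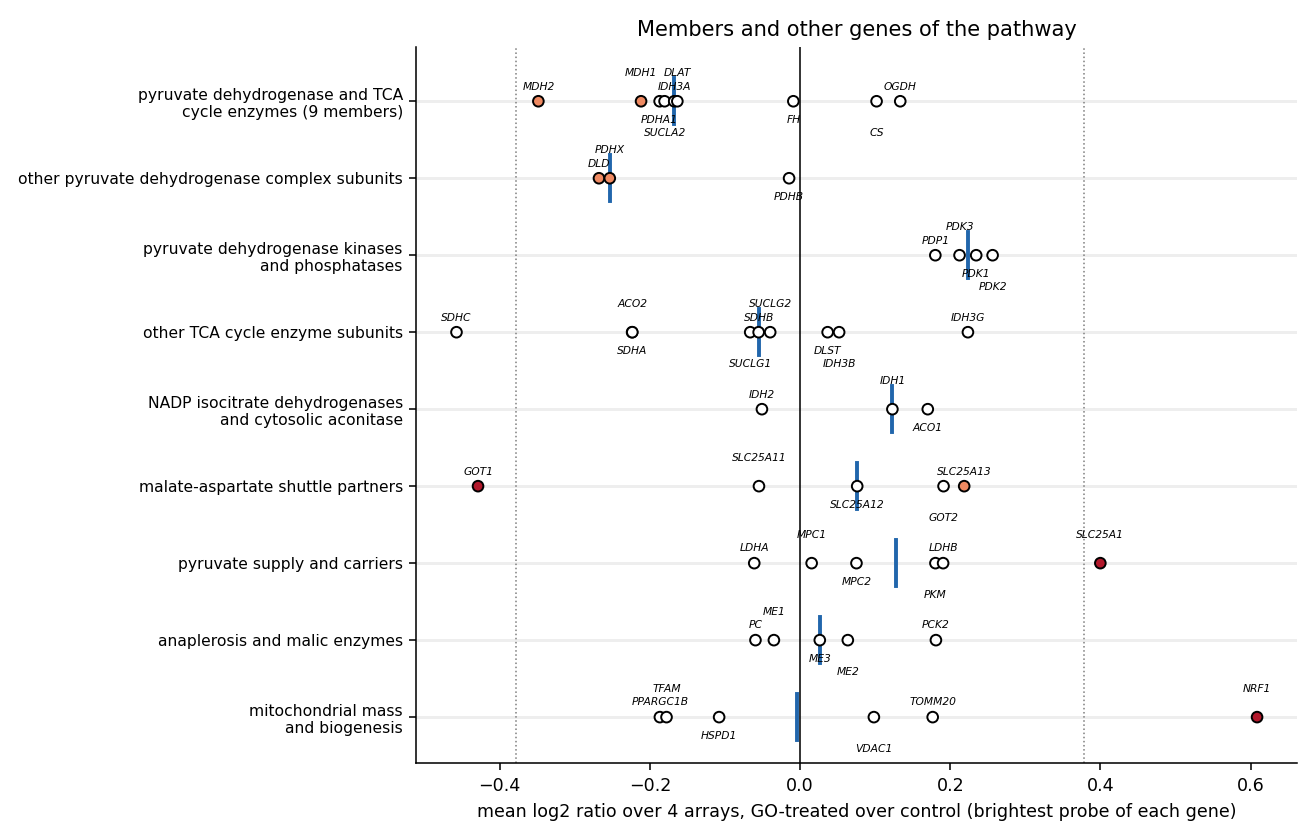
Mean log2 ratio, GO over control, of the 4 arrays for the 9 members and the tested genes of 8 lists around them, 1 point per gene (brightest probe). Red points met both thresholds, orange points the adjusted p alone, blue ticks are list medians and dotted lines the fold of 1.3; the members' median is -0.17 (-0.11 without lowess), and only GOT1, SLC25A1 and NRF1 are red. Without lowess FH, PDHB, SUCLG1, IDH2, LDHA, ME1 and HSPD1 turn from below to above 0 and ME2 from above to below 0; after normexp with loess MPC1 turns below 0 and LDHA is at 0.000524.

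Markers of muscle cells had mean ratios below 0, as MDH2 did, but array 1 stood apart. Over the 7 tested markers the mean log2 ratio was -0.28, -0.58, -0.70 and -0.68 on arrays 1 to 4. On array 1 MYOD1 (0.11) and CKM (0.13) were above 0, and CDH15 was at -0.08. Of 7 tested myogenic markers 5 were past both thresholds, all lower in GO-treated cells (MYF5 -0.93, MYH3 -0.83, DES -0.61, CDH15 -0.49 and MYOG -0.40), MYOD1 and CKM were at -0.36 (-0.06 by the other MYOD1 probe) and -0.30 and did not pass, and PAX7 was not well above background on any array; over all named genes 8.68% were past both. By the plain one-sample test only MYF5 passed (adjusted p = 0.0357), with MYH3 at 0.0723, DES at 0.109, CDH15 at 0.175 and MYOG at 0.0830, and after normexp with loess MYOG, at -0.35, was under the fold threshold and MYOD1, at -0.30, passed the adjusted p alone (0.0486). Without lowess all 7 were still below 0, but MYH3, at -0.19, did not pass the adjusted p (0.122, limma), and DES, at -0.37, did not reach the fold threshold. The summed processed signal of the 7 probes was 100942, 130835, 130970 and 98822 in control cells and 71907, 78427, 66848 and 58625 in GO-treated cells on arrays 1 to 4, with MYH3 the brightest. GO-treated cells were lower in summed signal on every array, but MYH3, whose ratio depended on lowess, made up most of the sum. Without MYH3 the sums were 27677, 43289, 36335 and 30852 in control cells and 24491, 28906, 22189 and 19236 in GO-treated cells, again lower on every array, with ranges that overlapped. The part of muscle cell content or of differentiation in the ratios of MDH2 and the other members was not tested.

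Of 6 fibroblast markers 1 was past both thresholds, beside 8.68% of all named genes. This was PDGFRA, higher at 0.87 (adjusted p = 0.0199, limma). The call was lost after normexp with loess, where PDGFRA was at 0.37 and under the fold threshold. It was also lost by the plain one-sample test (adjusted p = 0.152). COL3A1, the brightest, was at -0.10 but at 0.26 after normexp with loess and 0.78 without lowess, and COL1A1 turned from -0.20 to 0.29 without lowess. DCN, at 0.04, was at 0.70 without lowess, where it and COL3A1 were past both thresholds. The probes of these genes differed: the second DCN probe was at 0.42 and met both thresholds as deposited, the second COL1A1 probe was at 0.32, and the 7 COL3A1 probes ranged from -0.18 to 0.37. The second PDGFRA probe was at 1.38 and also met both thresholds as deposited. The summed signal of the 6 was 249192, 278747, 260463 and 193915 in control cells and 241702, 258604, 240128 and 191326 in GO-treated cells. Of 3 tested leukocyte markers 0 met both thresholds (limma). PTPRC and CD68, 2 of the 3, had an unadjusted p under 0.05 (limma), beside 34.7% of named genes. By the plain one-sample test 0 were past both thresholds. PTPRC passed the adjusted p alone at 0.31 (adjusted p = 0.0463, limma) by its brightest probe. CD68 went the other way, at -0.28 and lower on all 4 arrays (adjusted p = 0.0597), at -0.11 after normexp with loess (0.187) and at -0.36 without lowess, where it passed the adjusted p (0.0156). CD3E was not well above background on any array. Of 15 PTPRC probes only 8 met the filter and were tested. These 8 ranged from -0.30 to 0.36, so they lay on both sides of 0, and without lowess the brightest, at 0.48, was past both thresholds. The summed signal of the 3 genes was 15624, 16467, 17129 and 13998 in control cells and 21877, 20099, 18509 and 15563 in GO-treated cells. PTPRC made up most of it, and without PTPRC the sums were 4252, 5005, 4387 and 4209 in control cells and 5126, 5275, 4443 and 4442 in GO-treated cells. The 3 endothelial markers, PECAM1, CDH5 and KDR, and the 3 adipocyte markers, ADIPOQ, PLIN1 and LEP, met the filter with 0 genes. The part of these cell types in the members' ratios was not tested.

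The 5 named genes whose 4 log2 ratios lay closest to those of the brightest MDH2 probe, by Euclidean distance over the 4 arrays among 9497 genes, were SMS, B4GALT3, ARL6IP5, NEXN and BRK1, at distances of 0.04, 0.04, 0.05, 0.06 and 0.07. Their mean log2 ratios were -0.36, -0.34, -0.34, -0.34 and -0.36. The median distance of all genes was 0.79, and 15 genes lay within 0.1. Since the 5 genes were picked for this closeness, the likeness of their means to that of MDH2 was fixed by the choice.

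**Figure D5:**
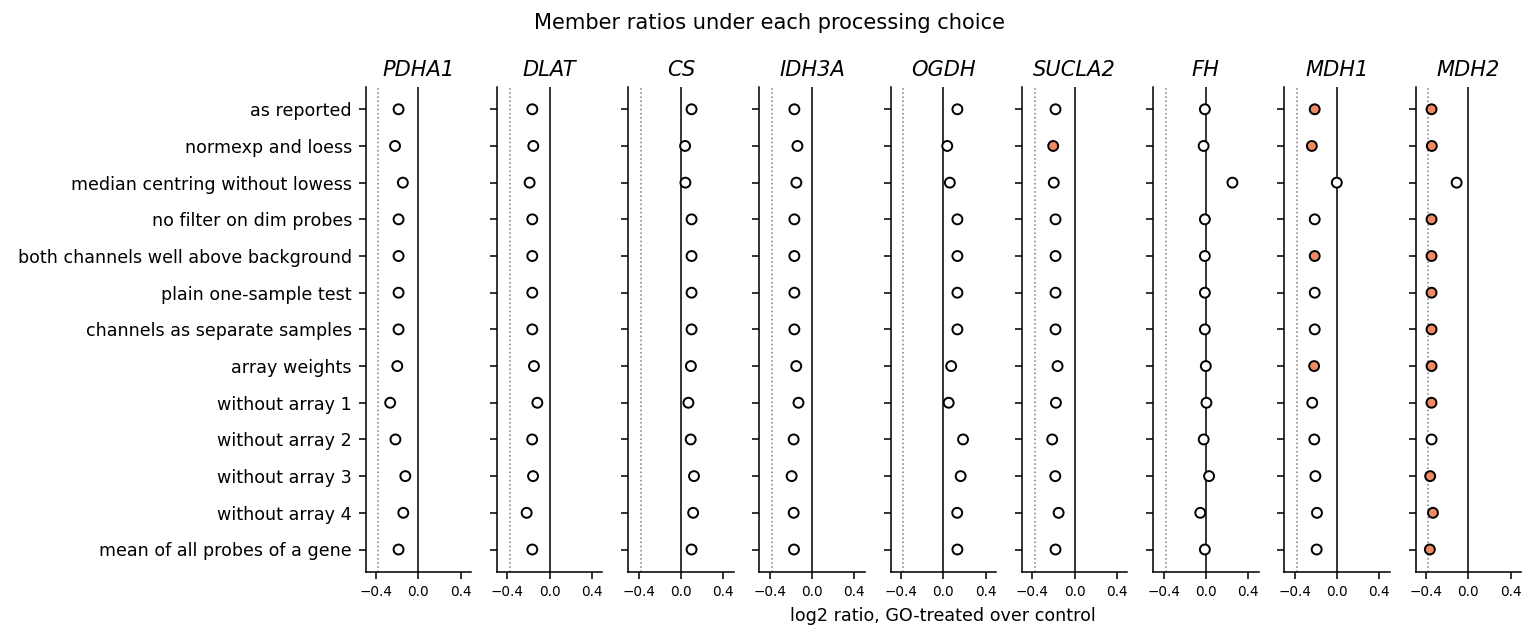
Mean log2 ratio (GO over control) of the brightest probe of each member under each processing choice; orange points have an adjusted p of at most 0.05, and dotted lines mark a fold change of 1.3. MDH2 lies between -0.36 and -0.11 throughout, the latter without lowess, where MDH1 is at -0.0026 and FH turns to 0.25.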

How the data were processed

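The members and the gene lists were chosen with earlier results of these data known. The authors labeled RNA with a RIN of at least 9.2 and scanned 4 arrays, and because all were on 1 slide no batch test by slide was possible. Per the file headers, Feature Extraction (10.10.1.1 there) gave each channel's intensity values, raw, background-subtracted and processed (dye-normalized, linear and lowess). The authors deposited log10 ratios, which are processed Cy5 over processed Cy3. The series table was not used here.

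Ratios were converted to log2, control and outlier spots (10 to 19 per array) were left out, and spots of 1 probe were averaged. Tested were 26832 probes well above background on all 4 arrays in at least 1 channel. Each was tested against 0 with limma 3.58.1 in R 4.3.3 (lmFit, eBayes), with Benjamini-Hochberg adjustment over all of them; the paper's methods give software and thresholds but do not name a test. The functions were tested on simulated data. Of the noncontrol spots, 63.5 to 68.9% (control) and 57.4 to 67.0% (GO) were well above background, and 4 arrays limit the precision of every value. Pairing by array was checked: deviations of both channels of an array correlated at 0.48 to 0.86, and those of different arrays at -0.54 to 0.24.

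Symbols are those of the files for 24962 probes; 2120 more were named through RefSeq (names only) and 24 through the gene named in the file's description, among them DLST, SLC25A12, PAX7, CDH15, COL1A1, PTPRC and PLIN1. SDHD and GLUD1 had no match. Probe positions are on EquCab1. A gene is represented by its brightest tested probe. Named were all members with every probe, each listed gene past both thresholds or, in a list without one, the gene with the largest ratio, and the 5 genes nearest to MDH2; other listed genes were named after their values were seen. Alternatives were normexp (offset 50) with loess, median centring without lowess, no or a stricter filter, a plain one-sample test, channels as separate samples, array weights, each array left out, and the mean of all probes of a gene.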

Additional observations from a re-analysis of the deposited data

Results flagged for a closer look

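Of 24 sets of 4 log2 ratios examined (16 member probes and 8 other pathway genes), 2 had 1 array far from the other 3, by the gap's share of the whole range (0.942 and 0.894). Chance flags about 1 in 20 groups. Both were array 1. For the IDH3A probe A_69_P097513 array 1 was at -0.27 and the others lay between -0.19 and -0.18. For the MDH2 probe A_69_P002001 array 1 was at -0.43 and the others lay between -0.34 and -0.33. Both were lower in GO-treated cells on every array, and without array 1 their means were -0.19 (adjusted p = 0.0791) and -0.33 (adjusted p = 0.0263, limma).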

How the results depend on the processing

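Counts are given for all probes past both thresholds (2399), member probes past both (1), member probes past the adjusted p alone (7) and the 41 other pathway genes past both (3). The member genes past both stayed at 0 under every choice.

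After normexp with loess the counts were 1297, 2, 9 and 1, with MDH2 A_69_P002001 at -0.40, SLC25A1 at 0.34 and NRF1 at 0.21. Without lowess they were 3306, 0, 1 and 3, FH turned from -0.01 to 0.25, and MDH2 A_69_P002002 was at -0.16. With dim probes kept they were 908, 1, 6 and 0, and with the plain one-sample test 147, 1, 4 and 0. With channels as separate samples they were 922, 1, 5 and 0 after arrays' mean signals were made alike, and 370, 0, 0 and 0 without this. The scaling was settled after both counts were seen. With array weights SLC25A1 was at 0.33.

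With 1 array left out the counts ranged over 1566 to 2430, 1 to 2, 1 to 5 and 0 to 2. Without array 2 they were 1566, 1, 1 and 0, and without array 3 the MDH2 probe A_69_P002003, at -0.39, was past both thresholds too, and 1 other pathway gene was. FH ranged from -0.053 to 0.031, above 0 without array 1 (0.0059) or array 3 (0.031). GOT1 ranged from -0.55 to -0.37, SLC25A1 from 0.29 to 0.46 and NRF1 from 0.52 to 0.68. The brightest MDH2 probe lost its adjusted p without array 2 (0.0592), and MDH1 and IDH3A A_69_P097513 without any 1 array. The cause of these shifts was not tested.

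Limits: 4 arrays, no dye swap and 1 slide. Median signal over local background, the limit on depth, was 3.66 to 4.22 in the control and 2.85 to 4.37 in the GO channel. Dim genes such as PDK4 were left out by the filter.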
